A study of Homo sapiens with 6 samples.

Results

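The high mobility group (HMG) genes HMGA1, HMGA2, HMGB1, HMGB2, HMGB3, HMGN1, HMGN2, HMGN3, HMGN4 and HMGN5 were examined in SaOS-2 cells in which p21 was switched on. The genes were chosen by symbol, with earlier results of these data known, so their counts beside all genes tested are a description. Each of the 10 symbols was found among the 23228 gene names of the table, and all 10 passed the filter on low values, a mean normalized count of at least 10, that left 13255 genes for testing. SaOS-2 is a human osteosarcoma line, described in the study as null for RB, and it carried a vector from which doxycycline, a tetracycline antibiotic, induces p21, an inhibitor of cyclin-dependent kinases. The 3 p21 OFF libraries came from untreated cells and the 3 p21 ON libraries from cells given 1 µg/ml doxycycline for 24 h. Both groups carry the vector and both were grown in DMEM with serum. Doxycycline in cells lacking the vector was not analysed here, and what p21 does and what the drug does cannot be told apart. Whether the line is a single clone is not given in the sources used here.

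HMG proteins are small, abundant, non-histone proteins of chromatin. HMGA proteins bind the minor groove of AT-rich DNA through short AT-hooks. HMGB proteins carry a pair of HMG boxes, folds that bend DNA, and HMGB1 also acts outside the cell as an inflammatory signal. HMGN proteins bind the nucleosome core particle and counteract the linker histone H1. HMGA2 is known as an embryonic and tumor-associated transcript restrained by let-7 microRNAs, and HMGB2 as a transcript that accumulates in proliferating cells.

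In these cells the HMGB and most HMGN transcripts fell after p21 induction while HMGA1 rose. HMGB1, HMGB2, HMGB3, HMGN1, HMGN2, HMGN3 and HMGN5 were lower and HMGA1 was higher in p21 ON cells (limma, adjusted p-value under 0.05), and HMGA2 and HMGN4 were neither. Thus 7 of 10 genes were called lower, where 12.7% of all genes tested were, and 1 of 10 was called higher, against 10.5% of all genes tested. The median log2 fold change of the 10 genes was -0.36, and that of all genes tested was 0.0056. Of the 5937 genes with a mean normalized count from 500 to 5000, the band that holds 9 of the 10 members, 17.6% were called lower and 9.65% higher. In 7 of the 10 genes, those called lower, each p21 ON library was under each p21 OFF library, as in 21.3% of genes tested. In 1 of the 10, HMGA1, each was over, as in 19.1% of genes tested. The calls rest on the same 6 libraries, so this separation is not separate support for them.

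The HMGN and the HMGA members share short sequence signatures that place them in their families. How far reads can tell paralogs apart was taken from stretches of the length of the reads, given further below. The following 10 codons begin the nucleosome-binding domain in the canonical transcript of each HMGN gene, read 5′ to 3′, with bases that differ from HMGN2 in capitals.
HMGN1: agGagatcGgcgCggttgtcAgctaaacct
HMGN2: agaagatccgcgaggttgtctgctaaacct
HMGN3: agaCgGtcTgcCagAttgtcAgcGaaacct
HMGN4: agGagatcAgcTCggttgtctgctaaaccA
HMGN5: agaagatcTgcCaggttgtctgctaTGcTt

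HMGN3 differed from HMGN2 at 7 of these 30 bases, HMGN4 and HMGN5 at 5 and HMGN1 at 4. The coding sequences of HMGN2 and HMGN4, each 270 bases without the stop codon, were the most alike of the HMGN pairs, with 86.3% identity. Among the HMGB genes, HMGB1 and HMGB2 had 77.6% identical coding bases, HMGB1 and HMGB3 74.6%, and HMGB2 and HMGB3 73.1%. The central AT-hooks of the HMGA genes differed at 7 of 30 bases, shown in capitals against HMGA1.
HMGA1: aagagacctcggggccgaccaaagggaagc
HMGA2: aagagaccCAggggAAgaccCaaAggCagc

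No members of the same family shared a stretch of 51 bases, the length of the reads, in its canonical transcripts. Exact copies elsewhere in the genome were frequent for some members, and many HMG genes are known to have processed pseudogenes. Of the 51-base windows of the HMGN1 transcript, 58.6% had an exact copy outside the gene in GRCh37, as did 47.8% for HMGN2, 33.4% for HMGB1, 20.2% for HMGA1 and 12.9% for HMGB3. The share was 0.647% for HMGB2, 0.661% for HMGN3 and 0.344% for HMGA2, and no window of HMGN4 or HMGN5 had a copy. How the authors' counting treated reads with several places is not given in the sources used here, so the level of HMGN1, HMGN2, HMGB1, HMGA1 and HMGB3 is uncertain to that extent. Of 157 annotated pseudogenes of members, only 3 had a row in the table. These 3 reached at most 3.66 normalized counts in any library, under the filter. Reads on pseudogenes without a row could not be checked.

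The libraries held 12795490 to 21975045 reads on genes, and the counts behind each member were whole reads recovered from the deposited values. CDKN1A, the gene of p21, was at 1257, 1187 and 1355 normalized counts in p21 OFF replicates 1, 2 and 3 and at 40470.4, 43863 and 46739 in the p21 ON replicates, as the labels say. Of 9 osteoblast markers, 6 passed the filter, among them RUNX2, SP7 and ALPL, with only IBSP called lower, while BGLAP was listed at 0 in every library and COL1A2 and SPP1 were under the filter. Of 5 markers of other cells, 3 passed the filter, the epithelial EPCAM and KRT5 and the endothelial PECAM1. Their mean normalized counts were 330.2, 22.3 and 12.6 in p21 OFF and 313 (EPCAM), 27.4 (KRT5) and 13.5 (PECAM1) in p21 ON libraries. The endothelial CDH5, at means of 0.679 and 0.388, and PTPRC, at 5.91 and 7.42, were under the filter. Although the study describes the line as null for RB, RB1 reads were present, at means of 555 and 654 normalized counts.

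The HMGB genes encode the DNA-bending proteins of the group, and all 3 were lower. HMGB2 changed most of the 10 members. It was at 2518, 2208 and 2093 normalized counts in p21 OFF replicates 1, 2 and 3 and at 1021, 1072 and 969 in the p21 ON replicates. The groups were wide apart, with the lowest p21 OFF library at 2093 and the highest p21 ON library at 1072. The mean fell from 2273 ± 220.1 to 1021 ± 51.5 (SD, n = 3 each), which is 44.9% of the p21 OFF level. On the log2 scale the change was -1.15 (SE 0.07, limma, adjusted p = 1.14e-09), and HMGB2 stood at position 114 from the lowest among the 13255 genes tested.

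HMGB1, the most studied HMG-box protein, was at 1229.5, 1140.5 and 1058 normalized counts with p21 OFF and at 795, 811 and 739 with p21 ON. The groups were apart, and the p21 ON mean of 782 ± 37.9 was 68.4% of the p21 OFF mean of 1143 ± 85.5 (SD, n = 3 each). On the log2 scale HMGB1 changed by -0.55 (SE 0.07, limma, adjusted p = 2.97e-05).
HMGB3, an X-linked paralog known from blood progenitors, was at 1246, 1021 and 1165 normalized counts with p21 OFF and at 724, 837 and 697 with p21 ON. Its p21 OFF replicate 2 and its p21 ON replicate 2 lay closest to the other group, without overlap. HMGB3 had a log2 fold change of -0.60 (SE 0.08, limma, adjusted p = 5.24e-05). Summed over the 3 genes, HMGB normalized counts went from 4559 ± 377 to 2555 ± 158 (SD, n = 3 each), which is 56.0% of the p21 OFF sum. RNA was measured in bulk, so fewer cells with much of a transcript and less of it per cell cannot be told apart here.

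**Figure D1:**
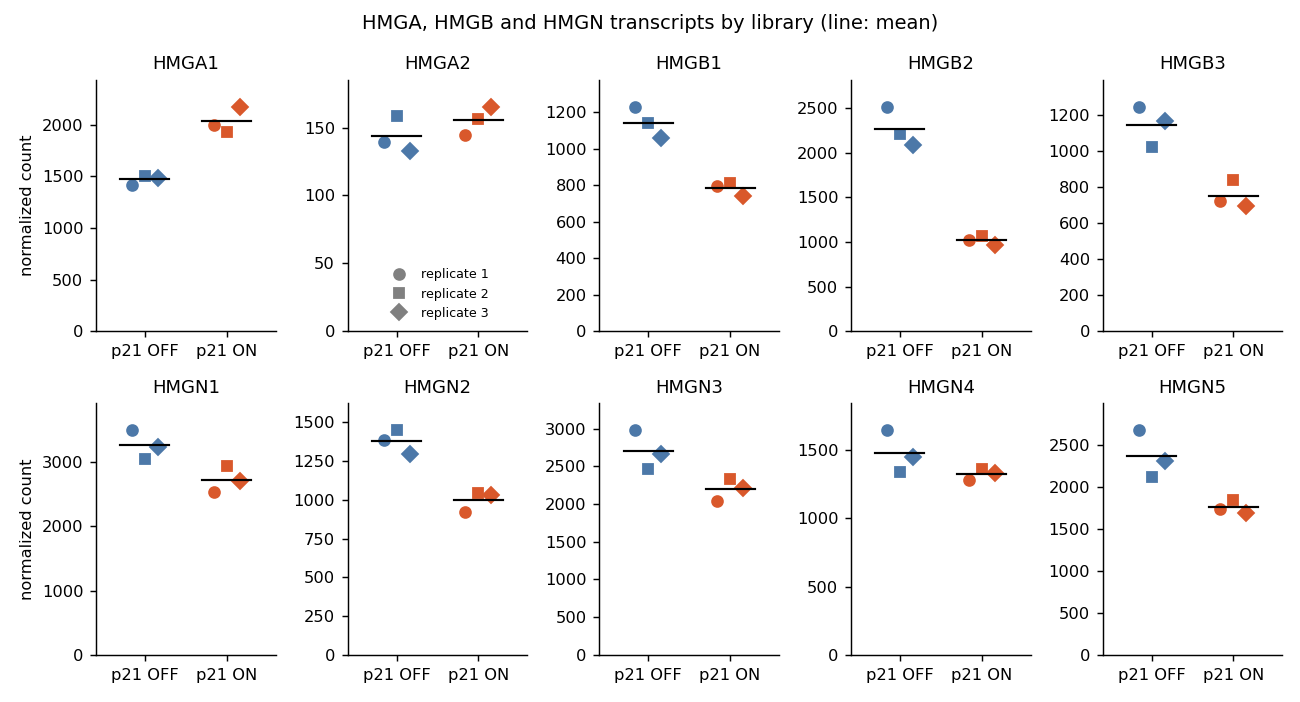
Normalized counts of the 10 HMG genes in each library (vertical axes from 0, a scale of its own for each gene), with p21 OFF in blue, p21 ON in orange, a marker for each replicate number and a line at the mean. HMGB2 was at 2093 to 2518 with p21 OFF and 969 to 1072 with p21 ON, HMGA1 is the gene whose p21 ON libraries all lay above, and HMGA2 and HMGN4 are those whose groups overlap.

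Of the 5 HMGN genes, which encode the nucleosome-binding proteins, 4 were called lower, with log2 fold changes from -0.47 to -0.26. HMGN2 was at 1389, 1449 and 1296 normalized counts with p21 OFF and at 919.7, 1043 and 1033 with p21 ON. All p21 ON values of HMGN2 were under the lowest p21 OFF value. Its log2 fold change was -0.47 (SE 0.07, limma, adjusted p = 0.000131), and its mean fell to 72.5% of the p21 OFF mean. HMGN5, an X-linked member with a long acidic tail, was at 2671, 2113 and 2312 normalized counts with p21 OFF and at 1736, 1845 and 1689 with p21 ON. The p21 OFF libraries of HMGN5 spread more widely than its p21 ON libraries, with coefficients of variation of 12.0% and 4.56%. On the log2 scale HMGN5 changed by -0.42 (SE 0.08, limma, adjusted p = 0.0007).

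HMGN3 was at 2976, 2465 and 2669.8 normalized counts with p21 OFF and at 2045, 2331 and 2207 with p21 ON. HMGN1, the founding member with HMGN2, was at 3490.1, 3053 and 3236 normalized counts with p21 OFF and at 2532, 2933 and 2705 with p21 ON. For both genes the groups did not overlap, but p21 OFF replicate 2 and p21 ON replicate 2 lay close to each other. The log2 fold change of HMGN3 was -0.30 (SE 0.07, limma, adjusted p = 0.00677), and that of HMGN1 was -0.26 (SE 0.07, limma, adjusted p = 0.0109). Of the members, these 2 lost their call when a library was left out. Without p21 ON replicate 1 the adjusted p-values from limma were 0.0609 for HMGN3 and 0.092 for HMGN1, and without p21 ON replicate 3 that of HMGN1 was 0.0524. With a trend on exonic length taken out of each library the log2 fold change of HMGN3 was -0.17, still called, with an adjusted p of 0.0411 from limma. HMGN3 overlaps exons of the antisense gene HMGN3-AS1, HMGN1 overlaps an annotated snoRNA on its own strand, and the strand setting of the authors' counting is not given in the sources used here.

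HMGN4, which has only 2 exons and lies on chromosome 6, was at 1641, 1339.7 and 1447 normalized counts with p21 OFF and at 1276, 1359 and 1330.3 with p21 ON. Its p21 OFF replicate 2 lay under p21 ON replicate 2, so the groups overlapped. The log2 fold change of HMGN4 was -0.15 with a 95% interval from -0.31 to -0.0011 (limma, adjusted p = 0.133), a range that includes falls as large as the estimate for HMGN3. With the length trend taken out it was -0.055, and without p21 OFF replicate 1 it was -0.075 (limma, adjusted p = 0.412). The summed HMGN normalized counts were 11183 ± 895 with p21 OFF and 8994 ± 501 with p21 ON (SD, n = 3 each), which is 80.4% of the p21 OFF sum.

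Of the HMGA genes, which encode AT-hook proteins, HMGA1 was the gene that rose. HMGA1 was at 1420.4, 1504 and 1485 normalized counts with p21 OFF and at 1997, 1931 and 2174 with p21 ON. The lowest p21 ON library, at 1931, was above the highest p21 OFF library, at 1504. The mean rose from 1469.7 ± 43.7 to 2034 ± 126 (SD, n = 3 each), to 138.4% of the p21 OFF level. The log2 fold change of HMGA1 was 0.47 (SE 0.06, limma, adjusted p = 4.26e-05), and 94.0% of all genes tested had a lower value. HMGA2, its paralog, was read far less often, with 111 to 203 reads in a library. It was at 139, 159 and 133 normalized counts with p21 OFF and at 144, 156 and 165 with p21 ON, and the groups overlapped. Its log2 fold change was 0.11 with a 95% interval from -0.12 to 0.35 (limma, adjusted p = 0.499), so a rise as large as that of HMGA1 lies outside this interval. HMGA2 overlaps exons of the antisense gene HMGA2-AS1.

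**Figure D2:**
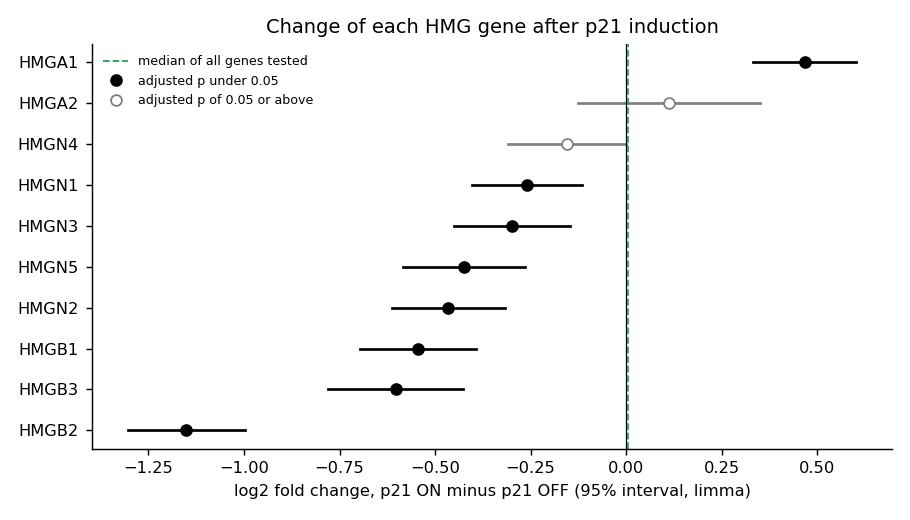
Log2 fold change of each HMG gene, p21 ON minus p21 OFF (horizontal axis), with its 95% interval from limma, filled where the adjusted p-value was under 0.05. The values run from -1.15 for HMGB2 to 0.47 for HMGA1, and the dashed line marks the median of all genes tested, 0.0056.

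Within each group, most HMGB and HMGN genes were highest in the same library. Of the 8 HMGB and HMGN genes, 7 were highest of the p21 OFF libraries in replicate 1, and all 8 were highest of the p21 ON libraries in replicate 2. These are the libraries with the fewest reads in their groups, 12795490 and 12918390, and the part of depth in this pattern was not tested. The share of all genes tested that were highest in these libraries was not computed. Whether the pattern is particular to the members is therefore not known. Without p21 OFF replicate 1 the log2 fold change was -1.07 for HMGB2, -0.49 for HMGB1 and -0.54 for HMGB3, and the 7 calls among the HMGB and HMGN genes were kept.

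Ratios between paralogs within a library do not depend on how libraries are scaled. A total of 7 pairs were compared, and 3 libraries against 3 cannot give an exact two-sided permutation p under 0.1, so none could pass a threshold of 0.05. The ratio of HMGB2 to HMGB1 normalized counts was 2.05, 1.94 and 1.98 with p21 OFF and 1.28, 1.32 and 1.31 with p21 ON. HMGB2 thus fell more than HMGB1 in every p21 ON library, with a difference in the log2 ratio of -0.61 (SE 0.03, exact permutation p = 0.1, adjusted over the 7 pairs 0.14). The ratio of HMGA2 to HMGA1 went from 0.0977 ± 0.0079 to 0.0764 ± 0.0042 (SD, n = 3 each), a difference in the log2 ratio of -0.35, and the groups did not overlap. HMGN4 to HMGN2 rose from 1.07 ± 0.13 to 1.33 ± 0.054 (SD, n = 3 each) without overlap, a difference in the log2 ratio of 0.31. HMGN2 to HMGN1 and HMGN5 to HMGN1 were also lower in every p21 ON library, with differences in the log2 ratio of -0.21 and -0.16. Without p21 OFF replicate 2 the difference was -0.12 for HMGN2 to HMGN1 and 0.21 for HMGN4 to HMGN2. HMGB3 to HMGB1 and HMGN3 to HMGN1 overlapped between the groups, with differences of -0.058 (SE 0.1, exact permutation p = 0.7) and -0.039 (SE 0.025, exact permutation p = 0.3).

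**Figure D3:**
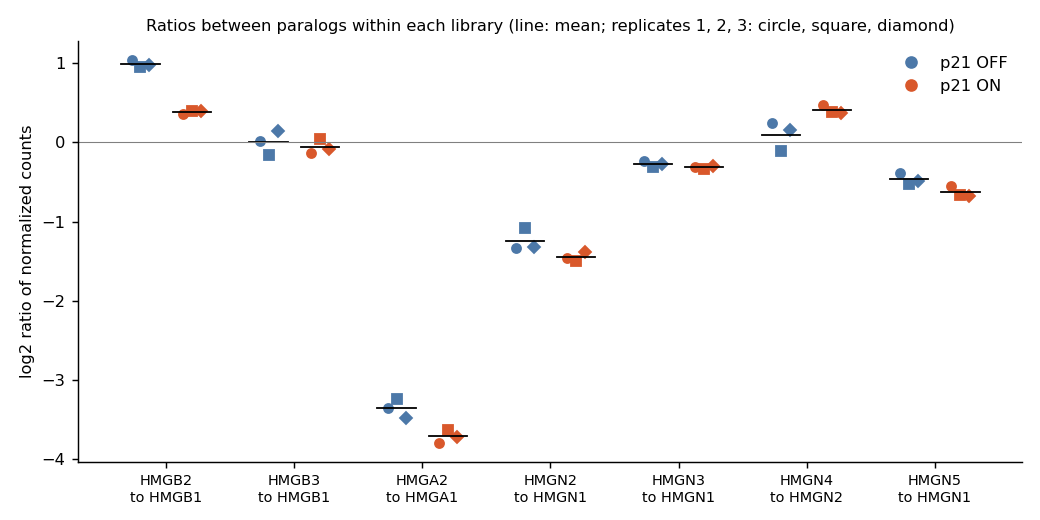
Log2 ratio of normalized counts for 7 pairs of HMG paralogs (vertical axis) in each library, with p21 OFF in blue, p21 ON in orange and a line at the mean. The points of HMGB2 to HMGB1 are apart between the groups, with means of 0.99 and 0.38, while those of HMGB3 to HMGB1 and HMGN3 to HMGN1 overlap.

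Levels of different genes were compared only per length, as CPM (counts scaled to the reads on genes of the library) per kilobase of the canonical transcript. With p21 OFF the order was HMGN3 (174.1 ± 18.0), HMGN1 (158 ± 12.0), HMGB2 (97.3 ± 10.1), HMGN5 (69.5 ± 8.91), HMGA1 (47.2 ± 1.02), HMGN4 (46.9 ± 5.26), HMGN2 (43.8 ± 2.38), HMGB3 (20.1 ± 2.16), HMGB1 (12.9 ± 1.05) and HMGA2 (2.15 ± 0.19; SD, n = 3 for each). HMGN3 and HMGN1 overlapped in their libraries, and HMGN4 overlapped with both HMGA1 and HMGN2. With p21 ON, HMGA1 at 67.3 ± 3.95 was the third and HMGB2 at 45.0 ± 2.36 the fifth (SD, n = 3 each), next to HMGN4 at 43.2 ± 1.23, with which its libraries overlapped. The levels of HMGN1 and HMGN2 depended most on the length used. Per kilobase of windows without a copy elsewhere in the genome, HMGN1 came to 397 ± 30.1 with p21 OFF, above HMGN3 at 185 ± 19.2, HMGN2 to 86.2 ± 4.68 and HMGB1 to 19.6 ± 1.58 (SD, n = 3 each). Which transcript ends these cells use was not measured, and the canonical HMGB1 transcript has 5456 bases while that of HMGB2 has 1441.

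**Figure D4:**
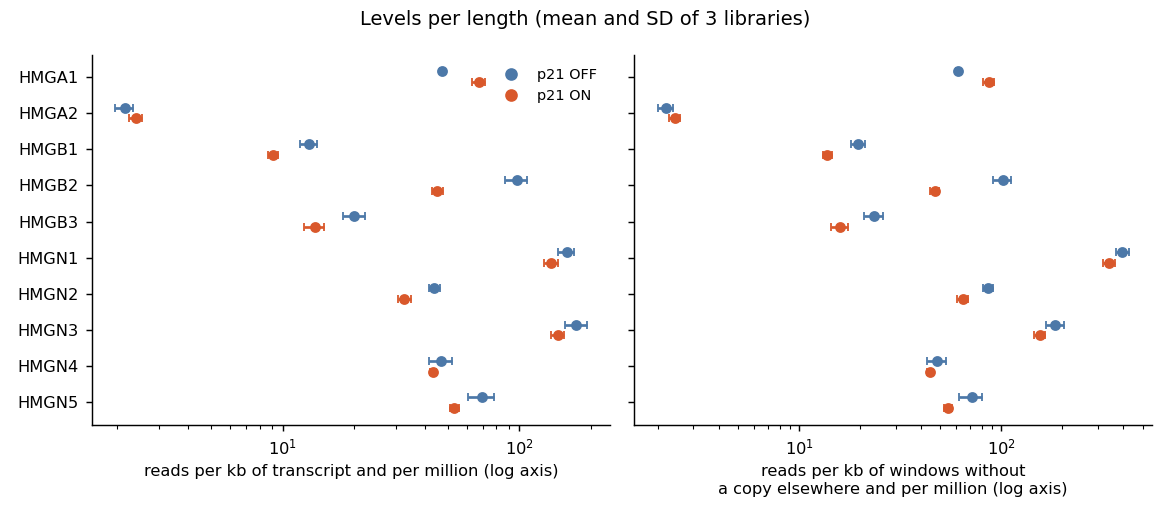
CPM per kilobase (horizontal log axes; points are means and bars SDs of 3 libraries) for the 10 HMG genes, on the left per kilobase of the canonical transcript and on the right per kilobase of 51-base windows without a copy elsewhere in the genome. HMGA2 is the lowest in both panels, and HMGN1 moves from 158 to 397 with p21 OFF between them.

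Positions are given in GRCh37, the assembly of hg19, to which the authors mapped. HMGB2 is at chr4:174252527-174255583 on the minus strand, HMGB1 at chr13:31030841-31191734 on the minus strand and HMGB3 at chrX:150148982-150159244 on the plus strand. HMGA1 is at chr6:34204650-34214008 and HMGA2 at chr12:66218240-66360071, both on the plus strand. HMGN1 (chr21:40714241-40721573, minus), HMGN2 (chr1:26798931-26803133, plus), HMGN3 (chr6:79910962-79944406, minus), HMGN4 (chr6:26538594-26547161, plus) and HMGN5 (chrX:80369198-80457412, minus) make up the rest.

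Promoters of the members were read for elements of cell cycle genes. RefSeq start sites in GRCh38.p14 were at hand for 8 members, with 12 entries of 300 bases, 250 before and 50 after the start. Promoters of HMGB2 and HMGA2 were not analysed here. The CHR, an element of G2/M promoters, was searched on both strands as TTTGAA or TTCGAA or TTTAAA, the E2F site as TTCCCGC or TTCGCGC or TTGCCGC or TTGGCGC, and the CCAAT box as CCAAT. A CHR word was in 5 of the 12 entries and in 25.1% of all 35116 promoters of the table. A CCAAT box was in 8 of the 12 entries and in 34.6% of all promoters. The E2F words were in none of the 12 entries and in 13.0% of all promoters. The 180 bases before the start are given for HMGB1, HMGB3 and HMGN2, which fell, and for HMGA1, which rose, with CHR words and CCAAT boxes in capitals. The first start site of each gene in the table was used, at chr13:30465937-30466116 on the minus strand for HMGB1, and on the plus strand at chrX:150983155-150983334 for HMGB3, chr1:26472260-26472439 for HMGN2 and chr6:34236693-34236872 for HMGA1.
HMGB1: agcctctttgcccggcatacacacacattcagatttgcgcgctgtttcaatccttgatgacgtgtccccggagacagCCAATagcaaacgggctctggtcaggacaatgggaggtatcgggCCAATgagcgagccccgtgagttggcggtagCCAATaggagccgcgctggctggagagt
HMGB3: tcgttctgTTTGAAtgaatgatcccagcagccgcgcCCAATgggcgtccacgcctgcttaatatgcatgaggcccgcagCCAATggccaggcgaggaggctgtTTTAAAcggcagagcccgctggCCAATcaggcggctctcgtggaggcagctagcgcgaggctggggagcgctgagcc
HMGN2: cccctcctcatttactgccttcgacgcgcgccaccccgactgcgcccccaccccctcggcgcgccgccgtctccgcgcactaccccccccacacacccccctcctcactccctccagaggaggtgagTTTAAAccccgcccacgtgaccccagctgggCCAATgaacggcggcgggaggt
HMGA1: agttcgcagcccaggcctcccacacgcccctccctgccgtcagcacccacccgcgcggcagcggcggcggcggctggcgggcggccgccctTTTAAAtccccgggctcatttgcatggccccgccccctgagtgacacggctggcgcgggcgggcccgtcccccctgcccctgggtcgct

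These HMGB1 and HMGB3 stretches each hold 3 CCAAT boxes. HMGB3 holds CHR words with first bases at -172 and -77 from the start, HMGN2 one at -53 and HMGA1 one at -89. HMGB1 had a CHR word only at its second start site, and HMGN4, which was not called, had one at -192. HMGN1, HMGN3 and HMGN5, which fell, had none in their entries. A CHR word was thus present before some genes that fell and before the gene that rose, and absent before other genes that fell. A match is a description of the letters only. Which of the start sites these cells use was not measured.

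The G1/S and G2/M gene lists used by the study hold 5 of the 10 members. HMGB2 and HMGB3 are G2/M genes at high and at low stringency. HMGA2 is a G2/M gene and HMGB1 and HMGN2 are G1/S genes at low stringency only. The lists were matched here by the same symbol only. HMGB2 stood at position 49, counted from the lowest log2 fold change, among the 98 high-stringency G2/M genes tested, whose median was -1.15, and HMGB3 stood at position 71. Among the 403 low-stringency G2/M genes, with a median of -0.30, HMGB2 stood at position 80, HMGB3 at 141 and HMGA2 at 377. Among 520 low-stringency G1/S genes, with a median of 0.005, HMGB1 stood at position 48 and HMGN2 at position 55. HMGB2 was thus at the middle of the high-stringency G2/M list and among the lower values of the low-stringency list.

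Genes that act with HMG proteins were taken from 4 further lists. Of 11 linker histone genes, whose products compete with HMG proteins on nucleosomes, 5 were tested. Of these, 3 were called lower and 2 were neither, with a median log2 fold change of -0.37. Of all genes tested 12.7% were called lower, and 5 genes are too few to set against that share. H1F0, a replacement linker histone, was at 5083, 4852 and 4915 normalized counts with p21 OFF and at 3884, 3604 and 3927 with p21 ON, a log2 fold change of -0.38 (limma, adjusted p = 0.000153). H1FX had a log2 fold change of -0.37 (limma, adjusted p = 0.000649) and HIST1H1C one of -0.40 (limma, adjusted p = 0.0094). The groups of HIST1H1C overlapped, and it was not called without p21 ON replicate 1 (limma, adjusted p = 0.0594) or without p21 ON replicate 3 (adjusted p = 0.0796). The 2 genes called neither, HIST1H1E and HILS1, were weak. HIST1H1E was at 53.6 normalized counts in p21 ON replicate 2, which carried it past the filter, and at 2.85 to 13.8 elsewhere. HILS1 had means of 13.1 with p21 OFF and 11.4 with p21 ON. Libraries were made from polyadenylated RNA, and most replication-dependent histone transcripts lack a poly(A) tail.

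Of 14 genes for HMGB1 receptors and partners and for the SET complex, an endoplasmic reticulum-associated complex that holds HMGB2, 9 were tested, and 5 were called lower and 4 neither, with a median of -0.20, against 12.7% of all genes tested called lower. The lower genes were NME1, ANP32A, APEX1 and SET of the SET complex, and CD24, a surface partner of HMGB1. TREX1, also of the SET complex, was not called and went the other way, with a log2 fold change of 0.18 (limma, adjusted p = 0.169). SET had a log2 fold change of -0.22 and was not called without p21 ON replicate 1 (limma, adjusted p = 0.0915). CD24 had one of -0.20 and was not called with library size scaling (limma, adjusted p = 0.0766). NME1 was at 2087, 1796 and 1607 normalized counts with p21 OFF and at 1227, 1373 and 1347 with p21 ON, a log2 fold change of -0.47 (limma, adjusted p = 0.000549). ANP32A had a log2 fold change of -0.31 (limma, adjusted p = 0.00147) and APEX1 one of -0.25 (limma, adjusted p = 0.00754). Without p21 ON replicate 1 the genes called lower numbered 2 and without p21 ON replicate 3 they numbered 3, and APEX1 had an adjusted p of 0.0605 in the first of these fits. Of the HMGB1 receptors, AGER was at 91.6 ± 17.8 and 86.8 ± 13.8 normalized counts with p21 OFF and ON, and TLR4 at 166 ± 12.3 and 169.9 ± 12.2 (SD, n = 3 each). CXCR4 was listed at 0 in every library.

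**Figure D5:**
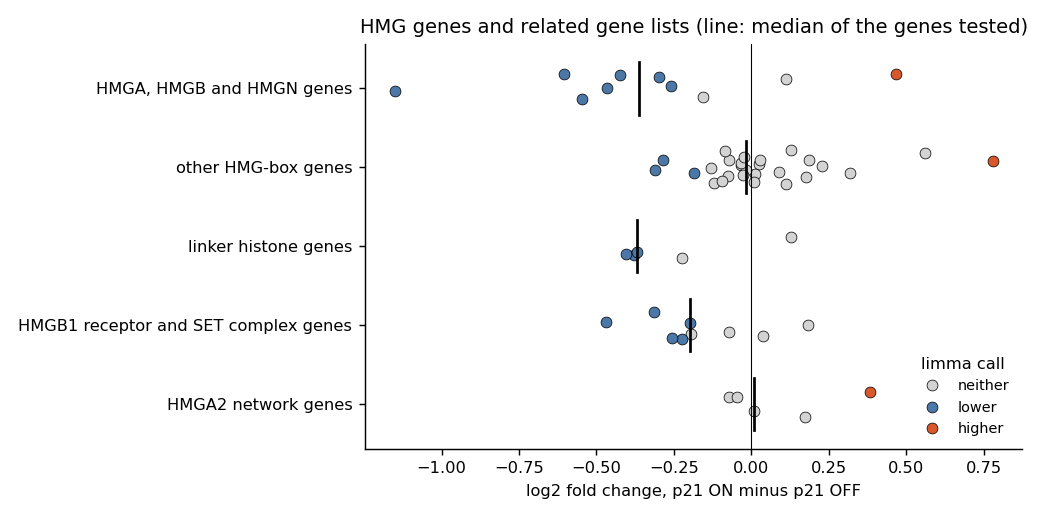
Log2 fold change, p21 ON minus p21 OFF (horizontal axis), of the 10 HMG genes and of the tested genes of 4 related lists (rows; points are genes, coloured by limma call, and the vertical spread within a row carries no value), with a line at each median. The medians are -0.36 for the HMG genes, -0.016 for other HMG-box genes, -0.37 for linker histones, -0.20 for HMGB1 receptor and SET complex genes and 0.01 for HMGA2 network genes.

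Of 31 other genes with an HMG box, 27 were tested, 3 were called lower, 1 was called higher and 23 were neither, with a median log2 fold change of -0.016. These counts lie near or under the shares over all genes tested, 12.7% lower and 10.5% higher. HMG20B, a subunit of a histone demethylase complex, was at 2385, 2239 and 2256 normalized counts with p21 OFF and at 1788, 1851 and 1911 with p21 ON, a log2 fold change of -0.31 (limma, adjusted p = 0.00139). The other genes called lower were SMARCE1, a subunit of a chromatin remodeler, and TFAM, the mitochondrial DNA-packaging factor. SMARCE1 had a log2 fold change of -0.19 (limma, adjusted p = 0.0427). Its call held with the first p21 OFF library or the second p21 ON library left out, and ended with any other left out (limma, adjusted p from 0.0725 to 0.17), as did DESeq2 (adjusted p = 0.0538). TFAM had a log2 fold change of -0.28 (limma, adjusted p = 0.0251), and leaving out any library other than p21 OFF replicate 3 ended its call. TOX2 was at 26.4, 24.2 and 24.4 normalized counts with p21 OFF and at 58.2, 42.6 and 33.3 with p21 ON, a log2 fold change of 0.78 (limma, adjusted p = 0.0169), and it was not called without p21 ON replicate 1 (limma, adjusted p = 0.128). SSRP1, the HMG-box subunit of the FACT histone chaperone, had a log2 fold change of -0.07 (limma, adjusted p = 0.349).

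Of 7 genes of the HMGA2 circuit with let-7, 5 were tested and 1 was called higher, where 10.5% of all genes tested were, too few genes to set against that share. IGF2BP1, an mRNA-binding protein, was at 147, 192 and 198 normalized counts with p21 OFF and at 249, 218 and 229 with p21 ON, a log2 fold change of 0.38 (limma, adjusted p = 0.0243). Its call was lost when the first library of either group or the third p21 ON library was left out (adjusted p = 0.0883, 0.122 and 0.0784 from limma). IGF2BP2, a known HMGA2 target, had a log2 fold change of 0.01 (limma, adjusted p = 0.922). LIN28A and LIN28B, which block let-7, were under the filter.

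For each member that changed, the genes with the most similar profile over the 6 libraries were found by Pearson correlation of log2(normalized count + 1), a description in which the difference between the groups takes part. For HMGB2 they were WRAP53, WDR12 and MAD2L1, a spindle checkpoint gene, each with r above 0.99. For HMGB1 they were CCDC150, IGFBP3 and PPA2, for HMGB3 SRBD1, MTFP1 and PTMA, and for HMGA1 NR1D1, DYSF and EVI5L. Of these, MAD2L1 had a log2 fold change of -1.48, WRAP53 one of -0.83 and CCDC150 one of -0.91, and NR1D1, a clock repressor, one of 0.59. For HMGN2 they were CENPM, a kinetochore gene, ZNF207 and ACTG1. HMGN1 had PSMD13, HNRNPUL2 and ZNF326, HMGN3 had HNRNPUL2, C8orf58 and RPS18, and HMGN5 had CBR1, TAX1BP1 and MGC15885. HMGN1 and HMGN3 thus shared HNRNPUL2, and the correlation of HMGN1 with HMGN3 was 0.99 over the 6 libraries. Among all these similar genes, IGFBP3, PPA2, HNRNPUL2, C8orf58, RPS18 and TAX1BP1 were not called (limma, adjusted p from 0.0511 to 0.299). Their log2 fold changes ran from -0.22 to -0.14.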

How the data were processed

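RNA of 6 SaOS-2 libraries was examined. The authors sequenced polyadenylated RNA as single-end reads of 51 cycles. They used STAR on hg19, then HTSeq for gene counts and DESeq2 for normalization, and versions are not given in the sources used here. The deposited values are normalized counts, a signal of reads divided by the size factor of the library. In every library 100% of values were whole multiples of 1 step within 0.01, which gave back whole reads. All columns had a sample.

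Here limma 3.58.1 (R 4.3.3) was fitted with a trend to log2(normalized count + 1) over genes with a mean of at least 10, which understates changes of weak genes, with Benjamini-Hochberg adjustment and a threshold of 0.05. It was tested on simulated data. Alternatives were edgeR 4.0.16, DESeq2 1.42.0, other scalings, pseudocounts of 0.1 and 10, no filter, a replicate block, removal of a length trend and left-out libraries. The labels do not say whether replicates are separate cultures, so p-values measure the spread between these samples. Lengths were from GENCODE for GRCh37 (21297 rows matched). Members and lists were chosen with earlier results of these data known. Named genes were the members, up to 3 called genes with the lowest adjusted p in each list, the 3 most alike genes of each called member, markers and pseudogene rows; further list genes named were chosen after their values were seen.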

Additional observations from a re-analysis of the deposited data

How the results depend on the processing

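Across 9 alternatives that used all libraries, the 10 members kept their direction and their side of the threshold, with 1 called higher and 7 lower each time. With 1 library left out at a time, 3 of 60 comparisons lost a call, those of HMGN1 and HMGN3 given above, and none turned. Log2 fold changes over all alternatives ran from -1.21 to -1.07 for HMGB2 and from 0.42 to 0.55 for HMGA1. CDKN1A stayed between 5.06 and 5.17.

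Scaling by library size alone put the median over all genes at 0.049 and changed the calls over all genes from 1393 higher and 1681 lower to 2034 and 1194. It gave 3 other HMG-box genes higher and 1 lower, and 2 HMGA2 network genes higher. The other HMG-box genes called higher were 2 with edgeR, with the replicate block and with the length trend removed, and the last gave 1 HMGB1 receptor and SET complex gene higher. With 1 library left out, other HMG-box genes numbered 0 to 5 higher and 1 to 2 lower, HMGB1 receptor and SET complex genes 0 to 1 higher and 2 to 5 lower, and HMGA2 network genes 0 to 1 higher. HMGB3 to HMGB1 turned without p21 OFF replicate 3, to a difference of 0.012, and ranged from -0.137 to 0.012 over the left-out libraries. The cause was not tested.

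Same-numbered libraries of the groups showed no shared deviation from their group means (correlations of -0.057, -0.025 and -0.048 across genes). With 3 libraries in each group this cannot exclude a weak pairing, and the labels do not say whether the numbers pair libraries. The replicate block gave 1407 genes higher and 1513 lower and changed no member's call, and SMARCE1 was not called under it (limma, adjusted p = 0.0802). Without p21 ON replicate 1 the calls over all genes were 695 and 887, and without p21 ON replicate 3 they were 739 and 1077. HMGA2, with 111 to 203 reads in a library, is the member that depth limits most.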
